A study of Mus musculus with 15 samples.

Results

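Peaks of 2 histone marks were examined at 9 genes, markers or regulators of the pluripotent state, in mouse embryonic stem cells (ESCs) and in 2 kinds of expanded potential stem cells (EPSCs). The genes were Dppa2, Dppa4, Dppa3, Dppa5a, Zfp42, Utf1, Lin28a, Zfp281 and Zmym2, 9 of the 22350 protein-coding genes of the mouse annotation GENCODE M1 (genome build mm9). They were chosen by name, and each annotated gene span was widened by 10 kb on both sides. Dppa4 and Dppa2 are neighbours on chromosome 16, with 16184 bp between their spans, and were treated as 1 locus, which left 8 loci of 21.1 kb (Dppa5a) to 93.7 kb (Zmym2).

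The authors mapped H3K27ac and H3K4me1 by ChIP-seq, the sequencing of DNA bound to immunoprecipitated histones, in 15 samples, namely 2 for each mark and cell state and an input sample of each state. All cells were labelled with the strain 129SV, and the ESCs were the J1 line. ESCs were kept in serum medium with LIF and 2i, the GSK3 inhibitor CHIR99021 with the MEK inhibitor PD0325901. D-EPSCs were kept in N2B27 medium with knockout serum replacement, LIF, CHIR99021, dimethindene maleate and minocycline hydrochloride, and L-EPSCs in DMEM/F12 with knockout serum replacement, LIF, CHIR99021, PD0325901, A-419259, XAV939, JNK inhibitor VIII and SB203580. Thus LIF and CHIR99021 were common to all 3 states, PD0325901 was absent from D-EPSCs, and serum was used for ESCs only, so single agents cannot be told apart from the medium as a whole. According to the study's methods the EPSCs were derived from ESCs and kept without feeder cells for several passages, whereas the labels allow fibroblast feeders or gelatin for ESCs and L-EPSCs.

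Each state and mark had 1 list of broad peaks, 6 lists in all, which hold positions and no signal. A covered base is a base of a window that lies under a peak of the list. With 1 list per state and mark there is no replicate check, so every difference is given as a size, without a test, beside the same count over all protein-coding genes. Both EPSCs were set against the same ESC lists. Where 3 values follow one another without a name, they stand for ESCs, D-EPSCs and L-EPSCs in this order.

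As background, acetylation of histone H3 at lysine 27 (H3K27ac) marks active promoters and enhancers, and monomethylation at lysine 4 (H3K4me1) marks enhancers, both active and poised, and the shoulders of active promoters, whose centres usually carry trimethylation instead. Several of the 9 genes are among the most specific markers of mouse pluripotent cells. Dppa3, Dppa5a and Zfp42 are read as signs of the naive state, while Utf1 and Lin28a persist or increase as cells move toward the primed state.

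The H3K27ac list of ESCs covered far more of the genome than those of the EPSCs. It held 107.4 Mb, against 44.4 Mb for D-EPSCs and 34.3 Mb for L-EPSCs, which is a log2 ratio over ESCs of -1.27 and -1.65. The H3K4me1 lists held 221.1 Mb, 187.5 Mb and 173.1 Mb, with log2 ratios of -0.24 and -0.35. Read depth is not known from peak positions, so a shorter list from lower depth and a shorter list from less of the mark cannot be told apart. Pou5f1, Sox2 and Nanog, which define pluripotent cells, had an H3K27ac peak within 1 kb of the start site in all 3 states. None of 9 fibroblast markers did in any state, although 5 of them had H3K4me1 there, and the summed H3K27ac over their windows was 13.6 kb, 4.31 kb and 2.93 kb.

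The 8 loci were densely marked in ESCs. H3K27ac covered a median of 36.7%, 15.9% and 12.4% of a locus, compared with 2.29%, 0.857% and 0% of the window over all protein-coding genes. H3K4me1 covered a median of 60.5%, 55.8% and 42.9% of a locus, compared with 12.4%, 11.6% and 10.2%. The range was wide. In ESCs H3K27ac covered from 5.95% of the long Zmym2 locus to 91.3% of the Dppa5a locus.

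At 8 of 8 loci the D-EPSC list held fewer H3K27ac bases than the ESC list, as it did at 81.9% of all genes with H3K27ac in either list. The L-EPSC list also held fewer at 8 of 8 loci, and at 90.6% of all genes. At least 2-fold fewer bases, the size used to call a locus lower, were found at 5 loci for D-EPSCs (57.8% of all genes) and 7 for L-EPSCs (75.2%). No locus had at least 2-fold more (9.26% and 4.75% of all genes). The median log2 ratio over the loci was -1.24 in D-EPSCs and, over the 7 loci with a ratio, -1.41 in L-EPSCs, compared with -1.11 and -1.61 over all genes. The members thus sat near the background of a generally shorter list. When bases in a locus were taken as a share of all bases of the list, 3 loci had less H3K27ac in either EPSC, namely Dppa3, Lin28a and Zfp281 in both. This count was not made over all genes. Their median ratios of -1.11 and -1.61, for genes with bases in both lists, also lay above the whole-list ratios of -1.27 and -1.65.

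**Figure D1:**
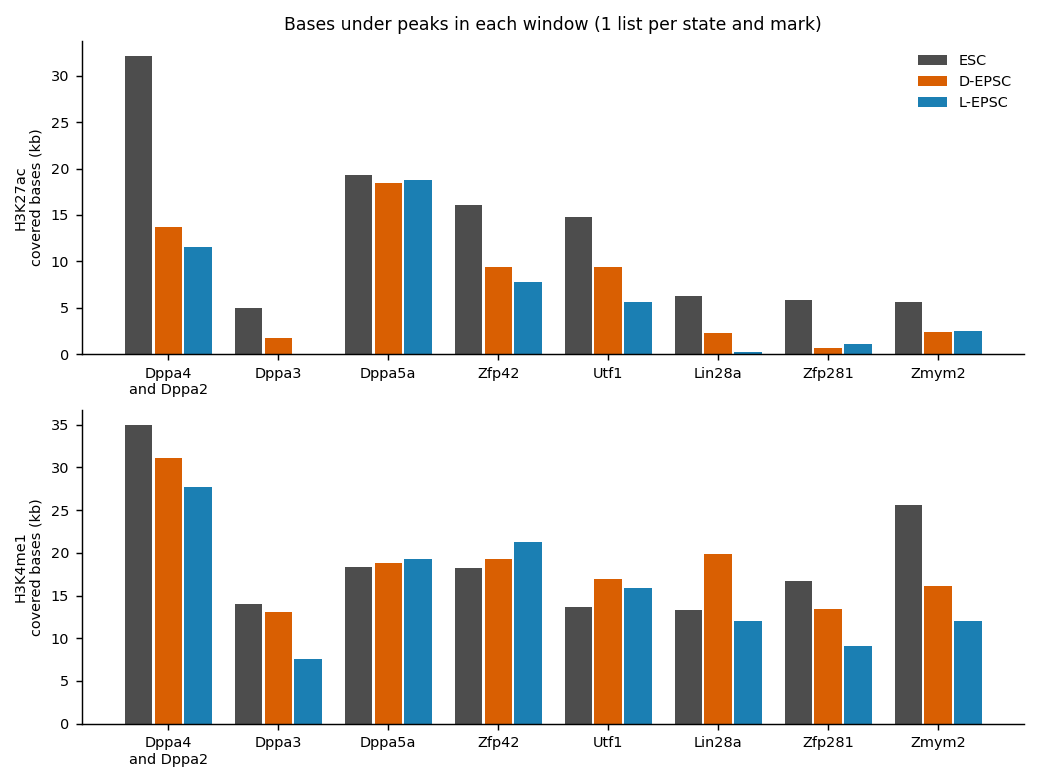
Bases under peaks (kb, linear axes from 0) in the window of each of the 8 loci, for H3K27ac (top) and H3K4me1 (bottom), 1 bar per state and no error bar because there is 1 list per state and mark. The 3 H3K27ac bars are close to level at Dppa5a alone (19.3, 18.5 and 18.7 kb), and no bar stands for L-EPSC H3K27ac at Dppa3, which is listed at 0.

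H3K4me1 stayed closer to level. Fewer bases than in ESCs were listed at 4 of 8 loci for D-EPSCs (56.8% of all genes) and 5 of 8 for L-EPSCs (65.0%). It was at least 2-fold lower at 0 loci for D-EPSCs (6.32% of all genes) and 1 locus, Zmym2, for L-EPSCs (11.3%). No locus had 2-fold more H3K4me1, which 11.4% and 12.6% of all genes did. The median log2 ratio over the loci was -0.03 for D-EPSCs and -0.24 for L-EPSCs, compared with -0.11 and -0.30 over all genes. As a share of the bases of the list, H3K4me1 was less at 2 loci for D-EPSCs and 3 for L-EPSCs, a count that was not made over all genes.

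**Figure D2:**
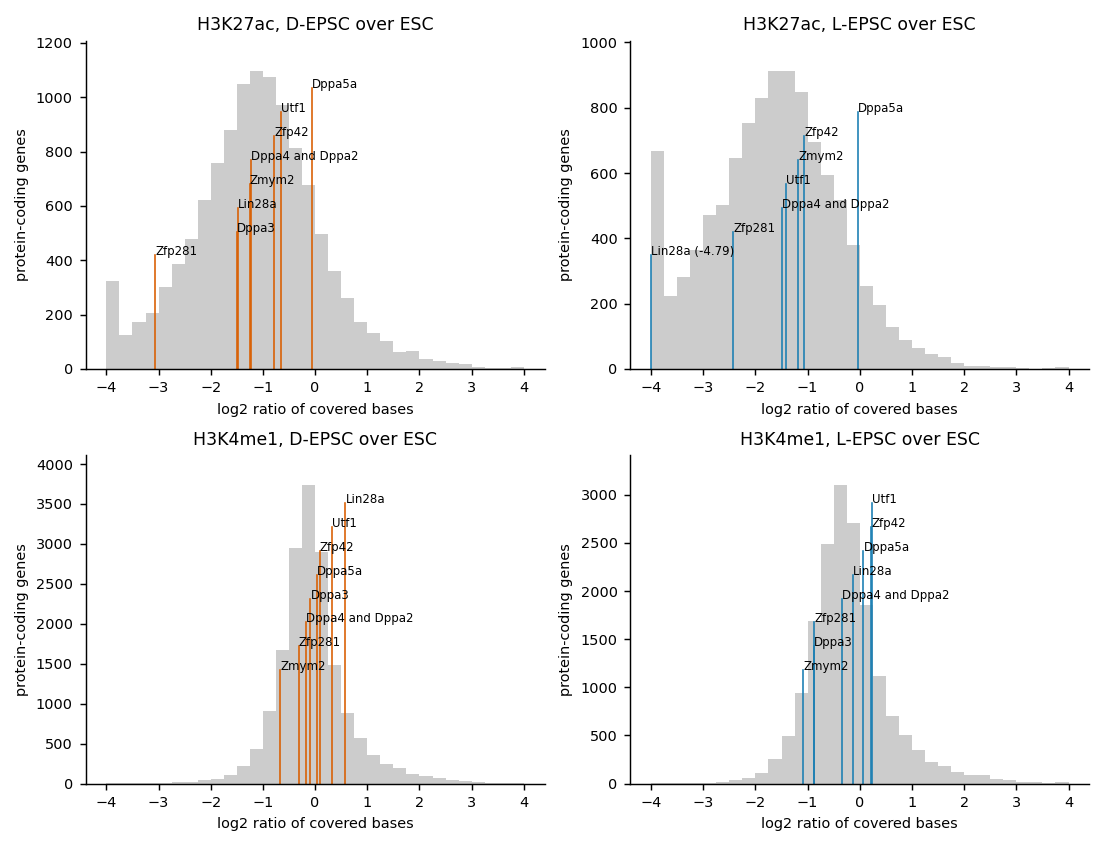
Histograms of log2 covered bases relative to ESCs for all protein-coding genes with bases in both lists (grey, values beyond 4 in either direction are drawn in the end bars), with a labelled line for each locus. The H3K27ac lines run from Zfp281 (-3.06) to Dppa5a (-0.06) in D-EPSCs and from Lin28a (-4.79) to Dppa5a (-0.04) in L-EPSCs, while the H3K4me1 lines lie between -1.09 and 0.58.

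Dppa4 and Dppa2 encode partner proteins with a SAP domain that bind DNA together and keep developmental promoters open to activation. Their shared locus, chr16:48273848-48329836, held 32.2 kb of H3K27ac in 13 peaks (ESCs), 13.7 kb in 6 peaks (D-EPSCs) and 11.5 kb in 5 peaks (L-EPSCs). The log2 ratios were -1.23 and -1.48, and became 0.042 and 0.17 as a share of the list. H3K4me1 covered 34.9 kb, 31.1 kb and 27.8 kb.

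The H3K27ac that remained was not spread evenly over the locus. The stretch of 9000 bp that ends 1 kb before the Dppa2 start carried 7005 bp, 7007 bp and 7000 bp of H3K27ac, whereas the Dppa2 gene body carried 5536 bp, 3 bp and 754 bp. Around Dppa4 the pattern was the opposite of that upstream of Dppa2. Its own upstream stretch of 9000 bp held 6104 bp (ESCs), 467 bp (D-EPSCs) and 0 bp (L-EPSCs), and its gene body 4840 bp, 311 bp and 71 bp. One H3K27ac peak covered the Dppa2 start site in each state, from -8005 to 5659 bp of the start (ESCs), -8007 to 1003 bp (D-EPSCs) and -8000 to 1552 bp (L-EPSCs). Its upstream edge lay within 7 bp in the 3 lists, while its other edge moved by several kb toward the start site. By width the peak ranked 480 of 64342, 235 of 32782 and 164 of 26966 in the 3 lists. H3K4me1 over the same upstream stretch was nearly as steady, with 7072 bp, 8243 bp and 7517 bp.

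Zfp42, also called Rex1, encodes a zinc finger protein related to YY1 and is a standard marker of naive cells. Its locus, chr8:44370422-44402363, held 16.1 kb of H3K27ac for ESCs, 9.37 kb for D-EPSCs and 7.72 kb for L-EPSCs (log2 ratios -0.78 and -1.06). These directions turned as a share of the list (0.49 and 0.59) and, for lists cut to equal covered bases, became 0.21 and 0.10. H3K4me1 went the other way in bases, from 18.2 kb to 19.3 kb and 21.2 kb.

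A single H3K27ac peak over the Zfp42 start site had nearly the same extent in every state, from -4429 to 2772 bp (ESCs), -4451 to 2801 bp (D-EPSCs) and -4433 to 2774 bp (L-EPSCs). Its edges lay within 22 bp and 29 bp of each other over the 3 lists. By width it ranked 2009 of 64342, 437 of 32782 and 357 of 26966, so it kept its size while the lists around it shortened. The H3K27ac that was missing from the EPSC lists lay downstream of it. A 4741 bp peak over the gene and a 3439 bp peak past its end were listed in ESCs, and the first was replaced by 2 short peaks in D-EPSCs and 1 in L-EPSCs, while no peak was left at the second. The bases just upstream of the start are shown because all 250 of them lay under H3K27ac and none under H3K4me1 in all 3 states. The sequence is from the RefSeq promoter table (build GRCm38.p6), matched to mm9 at chr8:44392364-44392613 on the minus strand, and capitals mark an octamer word, ATTTGCAT, the sequence that POU factors such as Oct4 bind, starting at -186.
Zfp42: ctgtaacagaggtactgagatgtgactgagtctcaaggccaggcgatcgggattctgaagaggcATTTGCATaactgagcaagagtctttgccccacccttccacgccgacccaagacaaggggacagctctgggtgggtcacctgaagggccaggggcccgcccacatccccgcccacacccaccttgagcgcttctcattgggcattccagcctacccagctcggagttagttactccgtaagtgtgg
The word was looked for on both strands and is present in 1.61% of 27025 promoters of the table and in 1.52% of 325063 tiles of 300 bases cut from the ESC H3K27ac peaks. Of the 5 members in the table (Zfp42, Utf1, Lin28a, Zfp281 and Zmym2), Zfp42 alone held it. Over the 8 loci the word occurred 22 times, of which 9 lay under H3K27ac in ESCs. Of these 9, 3 were under H3K27ac in all 3 states, namely the one shown and a pair upstream of Dppa2 at -6082 and -5881, and 6 were under it in neither EPSC. The 6 lay at 3340 bp from the start of Dppa4, at 5133 and 8471 bp of Dppa2, at 6172 and 12966 bp of Zfp42 and at -6929 bp of Utf1. How many octamer words of the whole ESC list were kept was not counted, so no link between the word and kept H3K27ac was tested. A match is a run of letters and was not tested as a binding site, and the words were chosen after the sequences had been seen.

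**Figure D3:**
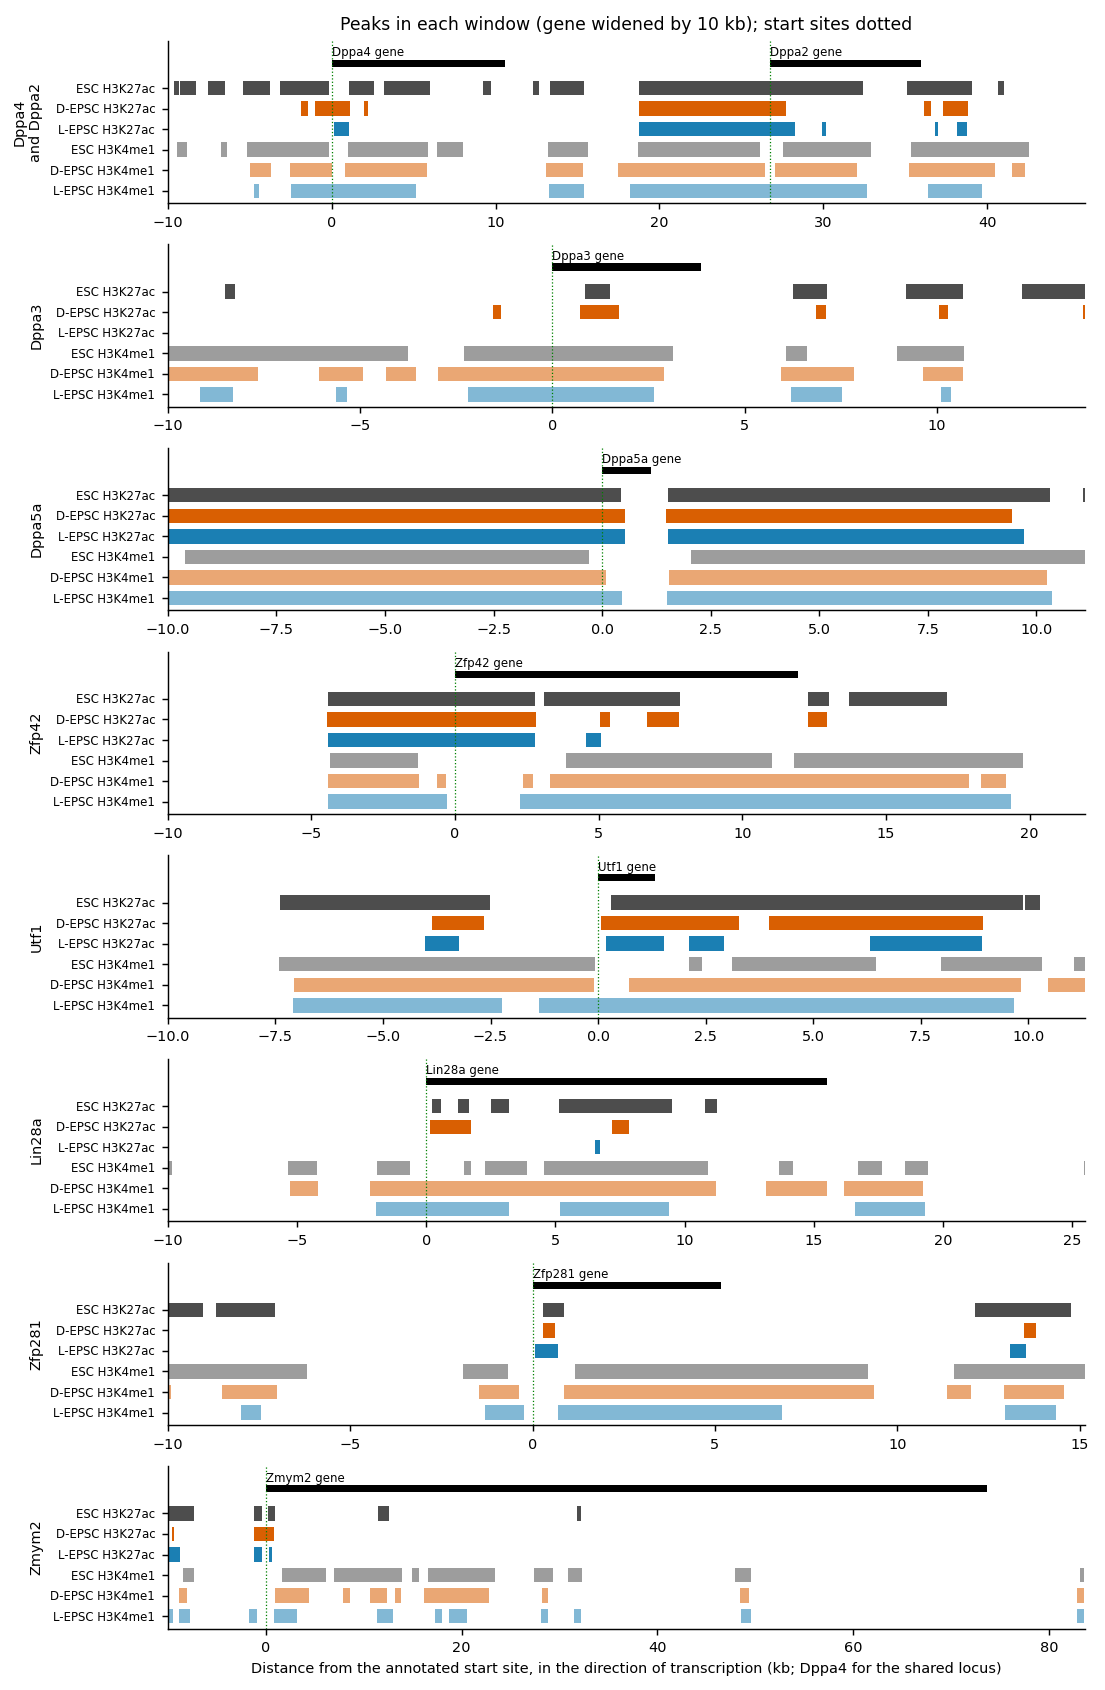
Peaks of the 6 lists in the window of each locus, drawn to scale against the distance from the annotated start site (kb, in the direction of transcription), with the gene as a black bar and start sites dotted. The H3K27ac peaks over the start sites of Dppa2 and Zfp42 share an edge in the 3 states, and both Dppa5a blocks persist. H3K27ac thins out in much of the remaining flanks and gene bodies. Within 1 kb of the start it covers fewer bases than in ESCs at Zfp281 in D-EPSCs and at Dppa3, Lin28a and Zmym2 in L-EPSCs. H3K4me1 is also thinner at Zmym2 in both EPSCs and at Zfp281 and Dppa3 in L-EPSCs.

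Utf1 encodes a chromatin-bound coactivator that is confined to pluripotent and germ cells, and it lies close to Kndc1, whose 3′ part is in the window. The locus, chr7:147119688-147141011, held 14.8 kb of H3K27ac (ESCs), 9.38 kb (D-EPSCs) and 5.57 kb (L-EPSCs), at log2 ratios of -0.66 and -1.41. As a share of the list the ratios were 0.61 and 0.23. H3K4me1 covered more bases in both EPSCs, with 13.6 kb, 17.0 kb and 15.9 kb.

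Most of the Utf1 H3K27ac lay past the gene, in the 3′ flank, where an enhancer of Utf1 bound by Oct4 and Sox2 is known. In ESCs 1 peak ran from 299 to 9865 bp of the start. In D-EPSCs it was divided into peaks from 77 to 3272 bp and from 3968 to 8942 bp, and in L-EPSCs into peaks from 180 to 1534 bp, 2103 to 2933 bp and 6317 to 8915 bp. The 10000 bp past the gene carried 8906 bp, 6924 bp and 3641 bp of H3K27ac, and 6270 bp, 9380 bp and 8342 bp of H3K4me1. The following 100 bases from the mm9 genome, chr7:147131539-147131638 on the plus strand and past the gene end, are shown because the marks changed over at them. H3K27ac covered them in ESCs and D-EPSCs and not in L-EPSCs, and H3K4me1 covered them in D-EPSCs and L-EPSCs and not in ESCs. Capitals mark a match, 1896 bp from the start site and on the minus strand, of the SOX-octamer composite word, in which a SOX sequence is joined to part of an octamer.
Utf1: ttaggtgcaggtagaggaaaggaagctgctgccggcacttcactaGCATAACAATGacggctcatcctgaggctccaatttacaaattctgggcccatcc
On either strand the composite word was found in 0.0629% of the promoters and in 0.06% of the tiles, and it was the only match in the 8 loci. It overlapped no match of the octamer word ATTTGCAT.

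Zfp281 encodes a zinc finger protein that binds G-rich DNA and helps cells leave the naive state. Its locus, chr1:138511478-138536630, held 5.78 kb of H3K27ac in ESCs, against 0.693 kb for D-EPSCs and 1.08 kb for L-EPSCs (log2 ratios -3.06 and -2.42). It was the lowest of the 8 ratios in D-EPSCs. Nearly all of the difference lay away from the promoter, in ESC peaks of 2183 bp and 1612 bp upstream and 2631 bp downstream. The 2183 bp peak began outside the window, which held 2580 bp of the upstream peaks. Of these peaks 352 bp and 447 bp remained downstream in D-EPSCs and L-EPSCs and 0 bp upstream. Within 1 kb of the start site H3K27ac covered 565 bp, 341 bp and 629 bp. With a window of 5 kb, which leaves out the outer peaks, the L-EPSC ratio was 0.15 and thus turned its direction, and the D-EPSC ratio was -0.73. H3K4me1 covered 16.7 kb, 13.5 kb and 9.13 kb, and the gene body stayed under it, with 4004 bp, 4152 bp and 4152 bp of 4152 bp. The upstream H3K4me1 peak of ESCs was 31707 bp wide and ranked 86 of 107222, and reached beyond the window.

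Zmym2 encodes a zinc finger protein of the LSD1 and CoREST corepressor complex, and is the longest of the 9 genes at 73693 bp. Its locus, chr14:57495490-57589182, held 5.57 kb of H3K27ac in ESCs, against 2.33 kb for D-EPSCs and 2.45 kb for L-EPSCs (log2 ratios -1.26 and -1.18, or 0.017 and 0.46 as a share of the list). H3K27ac in the gene body was 1405 bp in ESCs and 0 bp in both EPSCs. H3K4me1 covered 25.6 kb, 16.1 kb and 12.1 kb, and its log2 ratio of -1.09 in L-EPSCs was the lowest H3K4me1 ratio of the 8 loci.

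At the Zmym2 promoter the D-EPSC list differed from both others. In ESCs and L-EPSCs H3K27ac flanked the start site as separate peaks, from -1192 to -407 bp and 275 to 948 bp in ESCs and from -1192 to -365 bp and 280 to 620 bp in L-EPSCs. In D-EPSCs 1 peak ran across it from -1231 to 885 bp. The bases shown lay wholly within that D-EPSC peak and under no H3K27ac peak in ESCs or L-EPSCs. They are from the RefSeq table, at chr14:57505190-57505439 (mm9, plus strand), and end short of the annotated first base, because the start in the table lies at -50 bp of that in GENCODE M1. No word was marked in them.
Zmym2: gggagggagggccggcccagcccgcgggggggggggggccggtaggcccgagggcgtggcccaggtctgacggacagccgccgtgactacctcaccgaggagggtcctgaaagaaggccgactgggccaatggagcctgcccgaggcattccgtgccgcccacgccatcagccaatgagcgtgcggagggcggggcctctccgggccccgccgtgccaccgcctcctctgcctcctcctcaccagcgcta

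Dppa5a and Lin28a encode RNA-binding proteins, and for H3K27ac they stood at or near opposite ends of the loci. Dppa5a, a KH-domain protein also called Esg1, is the shortest of the 9 genes at 1126 bp. Its locus, chr9:78204859-78225984, held 19.3 kb, 18.5 kb and 18.7 kb of H3K27ac (log2 ratios -0.06 and -0.04). H3K4me1 covered 18.4 kb, 18.8 kb and 19.3 kb, so in the window of 10 kb both marks were level over the 3 states. With 20 kb on either side they were not. The wider window held 30.3 kb, 19.5 kb and 20.3 kb of H3K27ac, and 29.9 kb, 22.7 kb and 23.8 kb of H3K4me1. Ranked by the share of the window under H3K27ac, Dppa5a was 24, 20 and 10 of 22350 genes. The H3K27ac lay in 2 blocks on either side of the 3′ part of the gene. The upstream block was 12528 bp, 11334 bp and 11714 bp wide and also covered Ooep, an oocyte gene in the same window, so its peaks cannot be assigned to Dppa5a alone. The downstream block was 8794 bp, 7962 bp and 8201 bp wide, and its edge facing the gene lay at 1519, 1480 and 1510 bp from the start. As a share of the list, H3K27ac at Dppa5a had log2 ratios of 1.21 and 1.61, the highest of the 8 loci in both EPSCs.

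Lin28a encodes a protein that blocks the maturation of let-7 microRNAs. Its locus, chr4:133549245-133584756, held 6.26 kb of H3K27ac in 5 peaks (ESCs), 2.25 kb in 2 peaks (D-EPSCs) and 0.226 kb in 1 peak (L-EPSCs), with log2 ratios of -1.48 and -4.79. As a share of the list the ratios were -0.20 and -3.14. The widest ESC peak, 4380 bp in an intron, was replaced by a 669 bp peak in D-EPSCs and by the 226 bp peak in L-EPSCs. Near the start site H3K27ac ran from 150 to 1728 bp as 1 peak in D-EPSCs, where ESCs had 2 short peaks from 238 to 553 bp and from 1233 to 1644 bp, and L-EPSCs had none.

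H3K4me1 at Lin28a covered 13.3 kb (ESCs), 19.9 kb (D-EPSCs) and 12.1 kb (L-EPSCs). The D-EPSC log2 ratio of 0.58 was the highest of the 8 loci and the L-EPSC ratio was -0.14. For lists cut to equal covered bases these were 1.32 and 0.60, so the L-EPSC direction depended on list length. In D-EPSCs a single H3K4me1 peak of 13388 bp ran from -2165 to 11222 bp, across 4 separate ESC peaks and the bases between them. The bases before the start are shown because all 225 lay under H3K4me1 in both EPSCs and none in ESCs. They are from the RefSeq table, at chr4:133574757-133574981 (mm9, minus strand), and capitals mark overlapping matches of GGGGAGGGG at -106 and -101, a G-rich word of the kind Zfp281 binds.
Lin28a: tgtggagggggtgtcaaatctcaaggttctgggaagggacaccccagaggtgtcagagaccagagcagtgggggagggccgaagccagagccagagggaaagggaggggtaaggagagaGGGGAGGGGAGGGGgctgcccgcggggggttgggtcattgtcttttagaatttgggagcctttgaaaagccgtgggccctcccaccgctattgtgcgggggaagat
The word was found on either strand in 5.54% of the promoters and in 3.48% of the tiles, and in 1 of the 5 members with an entry. Dppa4, Dppa2, Dppa3 and Dppa5a had no entry.

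Dppa3, also called Stella, encodes a protein that protects maternal DNA methylation after fertilisation and marks germ cells. Its locus, chr6:122566428-122590290, held 4.93 kb of H3K27ac in ESCs and 1.75 kb in D-EPSCs (log2 ratio -1.50), and was listed at 0 in L-EPSCs, as was 23.1% of the windows of all genes with H3K27ac in either list. It was the only one of the 8 loci with no H3K27ac peak in a state, and this held for the window of 10 kb. With 20 kb on either side the Dppa3 window held 15.6 kb, 7.20 kb and 5.43 kb. With a window of 5 kb the D-EPSC ratio was -0.07, since the ESC peaks lay mainly from 6266 to 15902 bp past the start site. H3K4me1 covered 14.0 kb, 13.1 kb and 7.56 kb. The H3K4me1 peak over the Dppa3 start was nevertheless alike in the 3 lists, with 5432 bp, 5900 bp and 4841 bp, and the difference in L-EPSCs lay upstream, where the 9000 bp stretch held 7563 bp, 6269 bp and 2339 bp.

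The start sites were examined next. An H3K27ac peak lay within 1 kb of the start of 9 of 9 genes for ESCs (35.7% of all genes), 9 for D-EPSCs (35.3%) and 7 for L-EPSCs (28.8%). The genes without one in L-EPSCs were Dppa3 and Lin28a, and 29.4% of all genes with such a peak in ESCs lacked it in L-EPSCs. H3K27ac covered the first base of Dppa2, Dppa5a and Zfp42 in all 3 states (3 genes of 9 in ESCs, 21.5% of all genes). In D-EPSCs it also covered those of Dppa4 and Zmym2 (5 genes, 24.4%), and in L-EPSCs the 3 genes were again the total (17.4%). Within 1 kb of the start, D-EPSCs had more H3K27ac bases than ESCs at Dppa4 (835 bp in ESCs, 2001 bp in D-EPSCs) and Zmym2 (1268 and 1886 bp). The same held at Lin28a (316 and 851 bp), Utf1 (702 and 924 bp), Dppa3 (146 and 284 bp) and Dppa5a (1444 and 1526 bp). Dppa2 and Zfp42 were equal, and Zfp281 had fewer (565 and 341 bp). L-EPSCs had more such bases than ESCs at Dppa4 (840 bp), Utf1 (821 bp), Dppa5a (1531 bp) and Zfp281 (629 bp). They had as many as ESCs at Dppa2 and Zfp42, and fewer at Zmym2 (977 bp), Lin28a (0 bp) and Dppa3 (0 bp). These bases were not compared over all genes.

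H3K4me1 lay within 1 kb of the start site at 7 genes in ESCs (57.5% of all genes) and at 9 in both D-EPSCs (67.1%) and L-EPSCs (68.0%). Zfp42 and Zmym2 were the genes without it in ESCs. At the first base itself H3K4me1 was present in ESCs at 1 gene, Dppa3 (11.4% of all genes). It was present in D-EPSCs at 4, which were Dppa3, Dppa4, Dppa5a and Lin28a (26.2%), and in L-EPSCs at 6, which were those 4, Dppa2 and Utf1 (31.8%).

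The gap between the nearest H3K4me1 bases on either side of the first base was a measure added after seeing the data. It is 0 wherever a peak covers that base, even where unmarked bases follow close by. The gap was narrower than in ESCs at 7 of the 8 genes with a gap in ESCs for D-EPSCs and 8 of 8 for L-EPSCs. Among all genes with a gap in ESCs and a value in the EPSC list, it was narrower at 94.9% of 10737 and 94.5% of 10758. Genes with the first base covered in ESCs could not narrow and were left out, which favours this direction. The median over the 9 genes was 2074 bp, 584 bp and 0 bp, and over the genes with H3K4me1 on both sides within 10 kb 1554.5 bp (13554 genes), 818.5 bp (15136 genes) and 642.5 bp (15366 genes), a different set in each state. At Dppa5a the gap was 2332 bp in ESCs and 0 bp in both EPSCs, but its centre was not closed, because the peaks left unmarked bases between 84 and 1536 bp (D-EPSCs) and between 447 and 1499 bp (L-EPSCs). At Dppa4 the D-EPSC peak likewise ended on the first base, and the next began at 801 bp. A single peak ran across the start of Lin28a in both EPSCs and of Dppa4, Dppa2 and Utf1 in L-EPSCs. At Utf1 the gap was 2198 bp, 808 bp and 0 bp, and at Zfp42 5156 bp, 2693 bp and 2535 bp. At Zmym2 it was 8978 bp in ESCs and 8987 bp in D-EPSCs, the exception, and 1830 bp in L-EPSCs. The members with a gap in ESCs thus moved in the direction that most such genes did.

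**Figure D4:**
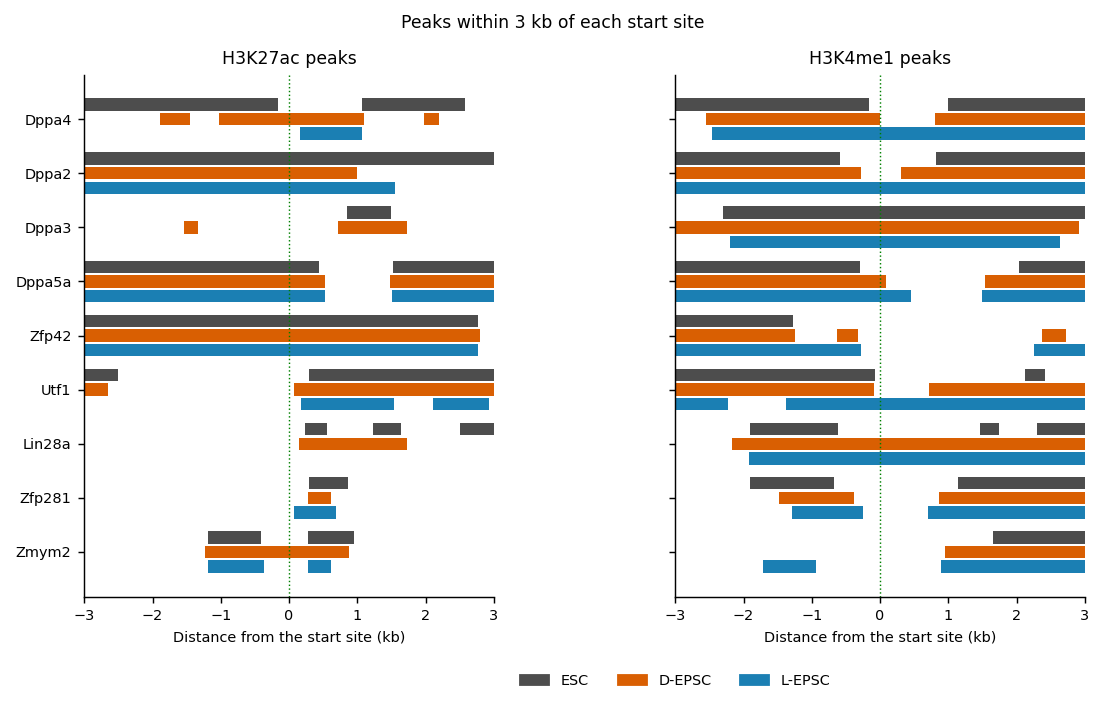
Peaks within 3 kb of each start site (dotted line) for H3K27ac (left) and H3K4me1 (right), 1 bar colour per state, in the direction of transcription. The first base, outside H3K4me1 in the ESC list at 8 of 9 genes, is covered at 3 of them in D-EPSCs and 5 in L-EPSCs, although at Dppa5a an unmarked stretch remains downstream of it, while H3K27ac is absent near the start in L-EPSCs at Dppa3 and Lin28a.

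Bases acetylated in ESCs were then followed into each EPSC list. Summed over the loci, 51.6% of them were still under H3K27ac in D-EPSCs and 43.7% in L-EPSCs, compared with 32.4% and 26.7% of the whole ESC list. Dppa5a carried much of this sum. Its own shares were 95.3% and 96.7%, and without it the others kept 41.8% and 31.8%. Counted per locus, the median kept share was 33.8% (D-EPSCs) and 34.9% (L-EPSCs). The D-EPSC median was thus close to the 32.4% of the whole list. The share was below that of the whole list at 4 of 8 loci in D-EPSCs, namely Dppa3 (23.8%), Lin28a (22.3%), Zfp281 (11.6%) and Zmym2 (28.9%). In L-EPSCs it was below at 3, Dppa3 (0%), Lin28a (3.61%) and Zfp281 (14.7%). Kept shares were not computed for the windows of all genes, and the whole list includes bases far from genes. In the other direction, 93.4% of the D-EPSC bases and 97.0% of the L-EPSC bases in the loci lay under H3K27ac in ESCs, compared with 78.4% and 83.6% of the whole lists. Between the EPSCs, 43456 bp were shared, which is 75% of the D-EPSC bases and 91.9% of the L-EPSC bases.

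Of the ESC-acetylated bases that were no longer listed, 74.5% lay under H3K4me1 in D-EPSCs and 72.4% in L-EPSCs, compared with 60.9% and 57.4% over the whole list. In ESCs 84.8% and 85.8% of the same bases in the loci had been under H3K4me1. At Zfp42 the shares were 97.0% and 100%, at Lin28a 99.5% and 89.9%, and at Utf1 87.2% and 90.7%. At the Dppa4 and Dppa2 locus they were 73.3% and 63.9%. They were lowest at Zfp281 in L-EPSCs (33.6%), at Dppa3 (45.5% and 40.4%) and at Zmym2 in D-EPSCs (42.2%), where such bases held neither mark more often than not. In ESCs the same bases had been under H3K4me1 at 96.7% (Zfp281), 49.9% and 56.0% (Dppa3) and 64.0% (Zmym2). At Dppa5a few bases were concerned, 914 bp and 645 bp. The Dppa4 and Dppa2 locus held the most, 19723 bp of 50786 bp in D-EPSCs and 21570 bp of 59041 bp in L-EPSCs. These shares were not taken over the windows of all genes, and the whole list also holds bases outside such windows.

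**Figure D5:**
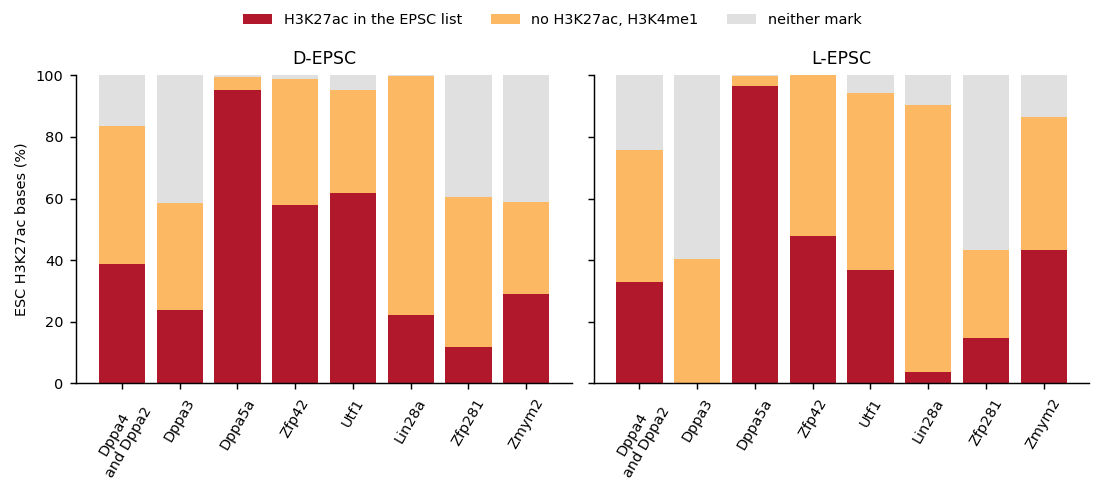
Percent of the bases under H3K27ac in ESCs at each locus that were under H3K27ac in the EPSC list (red), under H3K4me1 without H3K27ac (orange) or under neither mark (grey), for D-EPSCs (left) and L-EPSCs (right). Dppa5a is almost wholly red, Zfp42 has almost no grey, and Dppa3 in L-EPSCs has no red.

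Peak edges were compared as well, with a tolerance of 50 bp that was set after seeing the maps. Of 79 ESC H3K27ac peak edges in the loci, 5 (6.33%) had an edge of the same side in both EPSC lists within that distance. The share of all ESC edges was 0.978%. Because the tolerance was set on the maps of these loci, no conclusion is drawn from the difference. The 5 edges are listed as a description. They were the upstream edge at Dppa2, both edges at Zfp42, the edge of the downstream block at Dppa5a and the upstream edge at -1192 bp at Zmym2. For H3K4me1 it was 1 of 85 edges, far downstream at Zmym2, and 1.8% of all edges.

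The members were set beside 26 other pluripotency-associated genes, all of which were found in the annotation. H3K27ac covered fewer bases at 24 of them for D-EPSCs (81.9% of all genes) and 26 for L-EPSCs (90.6%). It was at least 2-fold lower at 13 (57.8% of all genes) and 17 (75.2%), so these genes were not called lower more often than genes in general. H3K4me1 was at least 2-fold lower at 0 of the 26 in D-EPSCs (6.32% of all genes) and in L-EPSCs (11.3%). It was at least 2-fold higher at 0 in D-EPSCs (11.4% of all genes) and in L-EPSCs (12.6%). At Klf5, a Krüppel-like factor of the naive network, H3K27ac covered 18.4 kb, 2.83 kb and 1.11 kb. At Prdm14, which represses FGF signalling in naive cells, it covered 20.4 kb, 2.53 kb and 2.73 kb, and at Tbx3 28.9 kb, 3.59 kb and 13.9 kb. Nr0b1 was at least 2-fold higher in D-EPSCs, with 0.586 kb and 1.49 kb, and was listed at 0 in L-EPSCs. The other genes lower in both EPSCs were Nr5a2, Klf4, Tfcp2l1, Sall4, Tcl1, Gdf3, Myc, L1td1, Tet1 and Stat3. Klf2, called lower in neither, held 21.85 kb, 21.17 kb and 19.04 kb of H3K27ac. Among 8 relatives of the members, H3K27ac was at least 2-fold lower at 5 in D-EPSCs (57.8% of all genes) and 5 in L-EPSCs (75.2%). In both they were Lin28b, Zfp148, Zmym1, Zmym4 and Zmym6, and Dppa1 had no H3K27ac peak in any state. Lin28b, a paralogue of Lin28a, held 12.6 kb, 5.42 kb and 2.43 kb of H3K27ac. Zmym4 held 18.7 kb, 4.02 kb and 3.79 kb, whereas Zmym3 held 5.88 kb, 5.34 kb and 5.82 kb.

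For each member the gene of those 26 with the most similar coverage was found by the mean absolute difference in percent of the window over the 6 lists. The closest matches were Myc for Zfp281 (4.32 percentage points) and Sall4 for Dppa2 (4.42), followed by Nr0b1 for Zmym2 (5.33), Klf2 for Dppa5a (5.71) and Myc for Dppa3 (5.81). Tet2 was closest to Zfp42 (6.74), Sox2 to Utf1 (7.50), Nr5a2 to Lin28a (7.60) and Tfcp2l1 to Dppa4 (7.91). These are descriptions over 6 lists.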

How the data were processed

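The authors aligned paired reads to mm9 (study's methods and processing notes) with Bowtie2 2.3.5, processed them with SAMtools 1.10 and called broad peaks with MACS against input. The deposited files hold chromosome, start, end and name of each peak. They give no other value, and the thresholds and any pooling of replicates are not stated in the sources used here. Lists were assigned by the state and mark they name. No peak passed a chromosome end of NCBIM37, the mm9 genome.

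Windows, start sites and annotation came from GENCODE M1. Covered bases were counted per window (10 kb flanks), a locus was called lower or higher at a 2-fold difference, and the same counts were made over 22350 protein-coding genes. Members and gene lists were chosen with earlier results of these data known, and all 9 members were reported. Gaps, parts of loci, edges, sequence words and the follow-up of acetylated bases were added after seeing the data. Interval counts were checked against simulated data in 200 lists, with 0 errors. Python 3.11.15, numpy 2.4.6 and matplotlib 3.10.9 were used. Coordinates are 1-based.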

Additional observations from a re-analysis of the deposited data

Results flagged for a closer look

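At Lin28a the covered bases of H3K4me1 differed from ESCs in opposite directions in the EPSCs, with a log2 ratio of 0.58 in D-EPSCs and -0.14 in L-EPSCs. This latter ratio turned to 0.60 for lists cut to equal covered bases, 0.21 as a share of the list and 0.37 with the widest 50% of each list. There was 1 list per state, and the difference between the EPSCs was not tested.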

How the results depend on the processing

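With 1 list per state and mark, no replicate could be left out. No paired analysis was possible because the lists carry no replicate numbers. Loci with fewer H3K27ac bases were 8 of 8 in both EPSCs as listed. With a window of 5 kb they were 7 in D-EPSCs and 6 in L-EPSCs, a count not made over all genes. For lists cut to equal covered bases they were 3 in D-EPSCs and 3 in L-EPSCs, and as a share of the list also 3 and 3, but 0 loci were lower in both settings. With equal bases they were the Dppa4 and Dppa2 locus, Dppa5a and Utf1, and as a share Dppa3, Lin28a and Zfp281, which were listed at 0 in the ESC list of equal bases. The equal-bases ESC list held only its 3725 widest peaks, so the count depends on list length. Loci with fewer H3K4me1 bases became 2 in D-EPSCs with a window of 5 kb, and as a share of the list 2 in D-EPSCs and 3 in L-EPSCs. H3K27ac start sites in ESCs were 5 with the widest 50% of each list, 5 with equal numbers of peaks and 4 with equal covered bases. At the first base alone, H3K27ac was at 3, 5 and 3 genes in ESCs, D-EPSCs and L-EPSCs, and H3K4me1 at 1 in ESCs and 4 in D-EPSCs. With 500 bp on either side, H3K4me1 was at 4 genes in ESCs. Of 235 ratios of single loci over 8 alternatives, 201 stayed within 1.5 times, 26 moved by more and 8 that were at least 2-fold as listed changed sign. Among the 201 and 26, 20 that were under 2-fold as listed also changed sign, 7 for H3K27ac and 13 for H3K4me1. For 21 more no ratio was compared because a list had no base. As a share of the list the H3K27ac log2 ratio reversed at Dppa4 and Dppa2 (0.042 in D-EPSCs, 0.17 in L-EPSCs), Zmym2 (0.017 and 0.46), Zfp42 (0.59 in L-EPSCs) and Utf1 (0.23 in L-EPSCs). It also reversed in L-EPSCs at Zfp42 with equal covered bases (0.10) and at Zfp281 with a window of 5 kb (0.15). Beyond what list length shows, the causes were not tested. Peak positions give no depth, so an absent peak is not an absent mark.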
